A study of Mus musculus with 7 samples.

Results

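The genes described here encode 4 inhibitors of cyclin-dependent kinases (CDKs): Cdkn1a, Cdkn1b, Cdkn2c and Cdkn2d, which make the proteins p21, p27, p18 and p19. They were chosen by name and were followed through all 7 RNA sequencing libraries of a study of mouse B cells, in which 11641 genes were named in at least 1 library. All 4 were assembled in every library. The cells were primary B cells of wild-type C57BL/6 mice, and the labels name no allele or agent beyond that background and the stimuli. One library came from unstimulated cells at 0 h, and the others from cells given anti-IgM, which crosslinks the B cell antigen receptor, or BAFF, a survival cytokine of the TNF family, or both, for 8 h or 30 h. Each condition was 1 library. A culture left without stimulus for 8 h or 30 h is not among them, and stimulus and culture time therefore cannot be told apart in any comparison with the unstimulated library. Whether cells were pooled over animals is not given in the sources used here.

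Progress from rest into the cell cycle depends on cyclin D with CDK4 or CDK6 and on cyclin E with CDK2. The INK4 proteins, among them p18 and p19, bind CDK4 and CDK6 themselves and block their pairing with cyclin D. The CIP/KIP proteins, among them p21 and p27, bind whole cyclin and kinase complexes, and p27 is the one known for holding resting lymphocytes out of division, with its protein level set to a large extent by degradation. Cdkn1a is a classic target of p53, and Cdkn1b of FOXO factors.

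The sequences upstream of the starts are shown because the assembled transcripts bear on which start was in use. RefSeq gives 6 starts for the 4 genes on GRCm38.p6, the build called mm10 in the deposited files, and the 250 bases before each were searched on both strands for 6 motifs. These were the Sp1 and KLF box GGGCGG, the forkhead core TGTTTA, the p53 core pair (CATG, any 6 bases, CATG), the E2F site TTTNNCGC, the NF-kappaB site (GGG, any 2 bases, TT, any base, CC) and the MYC E-box CACGTG. Capitals mark every match. The 4 windows printed are those of which at most 13 bases lie in an untranslated region (UTR) annotated by GENCODE release M21. In the windows not printed, 250 bases (upstream start of Cdkn2c) and 198 bases (Cdkn2d) lie in such a region. Those windows are thus largely sequence that other annotated transcripts include.
Cdkn1a, distal start, chr17:29090729-29090978, plus strand: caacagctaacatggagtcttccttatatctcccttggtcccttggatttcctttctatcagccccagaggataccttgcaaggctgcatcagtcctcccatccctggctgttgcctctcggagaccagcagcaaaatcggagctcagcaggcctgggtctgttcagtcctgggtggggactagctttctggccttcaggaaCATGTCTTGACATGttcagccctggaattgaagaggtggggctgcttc
Cdkn1a, proximal start, chr17:29093519-29093768, plus strand: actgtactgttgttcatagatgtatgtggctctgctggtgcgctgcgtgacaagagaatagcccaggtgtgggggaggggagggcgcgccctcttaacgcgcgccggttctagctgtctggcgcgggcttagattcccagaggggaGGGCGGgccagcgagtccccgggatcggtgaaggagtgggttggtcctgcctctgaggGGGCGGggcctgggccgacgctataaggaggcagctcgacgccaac
Cdkn1b, chr6:134920151-134920400, plus strand: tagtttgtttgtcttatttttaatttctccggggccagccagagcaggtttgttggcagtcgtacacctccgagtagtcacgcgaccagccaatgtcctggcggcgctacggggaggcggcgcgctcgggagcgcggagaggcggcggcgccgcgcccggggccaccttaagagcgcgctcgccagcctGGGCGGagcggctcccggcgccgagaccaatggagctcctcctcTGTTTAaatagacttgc
Cdkn2c, start next to the coding sequence, chr4:109665373-109665622, minus strand: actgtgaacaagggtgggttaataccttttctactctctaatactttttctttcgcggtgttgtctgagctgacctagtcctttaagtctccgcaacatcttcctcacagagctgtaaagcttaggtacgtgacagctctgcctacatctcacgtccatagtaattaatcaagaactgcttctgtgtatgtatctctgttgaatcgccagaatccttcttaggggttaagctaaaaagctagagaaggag

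The p53 core pair was found before the distal start of Cdkn1a and before none of the other 5 starts, and 0.49% of all 32851 RefSeq promoter windows of this length held it. The Sp1 and KLF box was found before 4 of the 6 starts, with 2 matches before the proximal start of Cdkn1a, 1 for Cdkn1b, 3 for Cdkn2d and 3 before the upstream start of Cdkn2c. It was present in 32.7% of all windows. The forkhead core was found before Cdkn1b, overlapping no other match, and in 12.0% of all windows. The E2F site (4.28% of all windows), the NF-kappaB site (4.11%) and the E-box (6.02%) were not among these letters at any of the 6 starts. A match is a description of the letters only. The 2 starts of Cdkn2c stood in unlike sequence: 77.2% of bases were G or C, with 29 CpG, before the upstream start, against 42.8% and 6 CpG before the start next to the coding sequence.

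Levels are given in 2 ways. The first is the deposited FPKM (fragments per kilobase of transcript per 1 M mapped fragments) of each transcript the authors assembled, summed over a gene's transcripts of at least 300 bases. The second spreads the fragments of every assembled piece over the gene's reference exons, and is called FPKM over exons. It counts a piece by its bases in those exons, on either strand and also where the piece is named for another gene. A gene can therefore have a value over exons without a transcript named for it. The second measure is computed back from the first and is not independent of it. It matters here because a gene assembled in separate pieces has the FPKM of each piece added up, although the pieces lie end to end. Bounds in brackets are the deposited intervals, summed over transcripts. For a gene with 1 transcript they mostly equal 2 square roots of the fragment number either way, and they are wider where overlapping transcripts share fragments. They cover no variation between samples. Mapped fragments, recovered from the files, ranged from 18.75 to 28.61 M per library.

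The B cell markers Pax5, Ms4a1, Cd22 and Cd79b were assembled in every library, with Pax5 between 50.81 and 145.2 FPKM and Ms4a1 between 125.2 and 442.5 FPKM, while Ighm and Ighd were not found under those names. Cd79a had no transcript that counted towards summed FPKM, and over exons it was between 137.6 and 657.6 FPKM. Of the 8 T cell markers, Cd3e, Cd3d and Trac were not assembled in any library, but the kinase gene Lck and Cd5 were in every library. Lck was at 16.51 FPKM unstimulated and between 14.87 and 93.80 FPKM in the cultured libraries, and Cd5 was between 1.099 and 5.551 FPKM. The summed FPKM of the T cell list was 29.83 unstimulated and lowest, at 15.97, with BAFF at 8 h, and it was highest with anti-IgM at 30 h. Cd4 (4.616 FPKM) and Cd8a (3.155 FPKM) were assembled in the unstimulated library, and Cd4 (1.144 FPKM) with BAFF at 30 h. None of the 7 neutrophil markers was assembled in any library. By summed FPKM the macrophage and monocyte list was higher in the unstimulated library than in any other, with 11 of 13 genes assembled and 367.7 FPKM in sum, against 7 to 10 genes and 59.19 to 149.7 FPKM in the 6 cultured libraries. Over exons the gap was smaller, with 388.5 FPKM unstimulated and 63.28 to 353.5 FPKM cultured, where Cd68, which counted over exons only, ranged from 4.342 to 302.7 FPKM. Without Cd68 the sums over exons were 298.3 and 44.60 to 113.2 FPKM. C1qa was at 40.34 FPKM in the unstimulated library, not assembled in any library of 8 h, and between 1.772 and 5.078 FPKM at 30 h. Not every gene of the list was lower in culture. Mpeg1 was at 34.81 FPKM unstimulated and at 61.9, 46.68 and 71.27 at 30 h with anti-IgM, BAFF and both. Emr1 was at 32.77 FPKM unstimulated and 48.17 with BAFF at 30 h. Lyz2 was at 16.32 FPKM unstimulated and at 16.79 and 19.84 at 30 h with anti-IgM and BAFF. At 8 h Emr1 and Lyz2 were lower than unstimulated with every stimulus. The erythroid genes Beta-s and Alas2 summed to 221.3 FPKM in the unstimulated library and to at most 48.09 FPKM in the others. These differences go with every comparison with the unstimulated library below, and their part in them was not tested. Marker sums also differed between cultured libraries, and their part in those comparisons was not tested either. At 8 h the erythroid sum was 48.09 FPKM with BAFF, and no erythroid marker was assembled with anti-IgM or both. The B cell sum at 8 h was 769.6 FPKM with anti-IgM, 1689 with BAFF and 979.6 with both, against 1709 unstimulated. In bulk RNA, fewer cells of a type and less RNA per cell cannot be told apart.

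**Figure D1:**
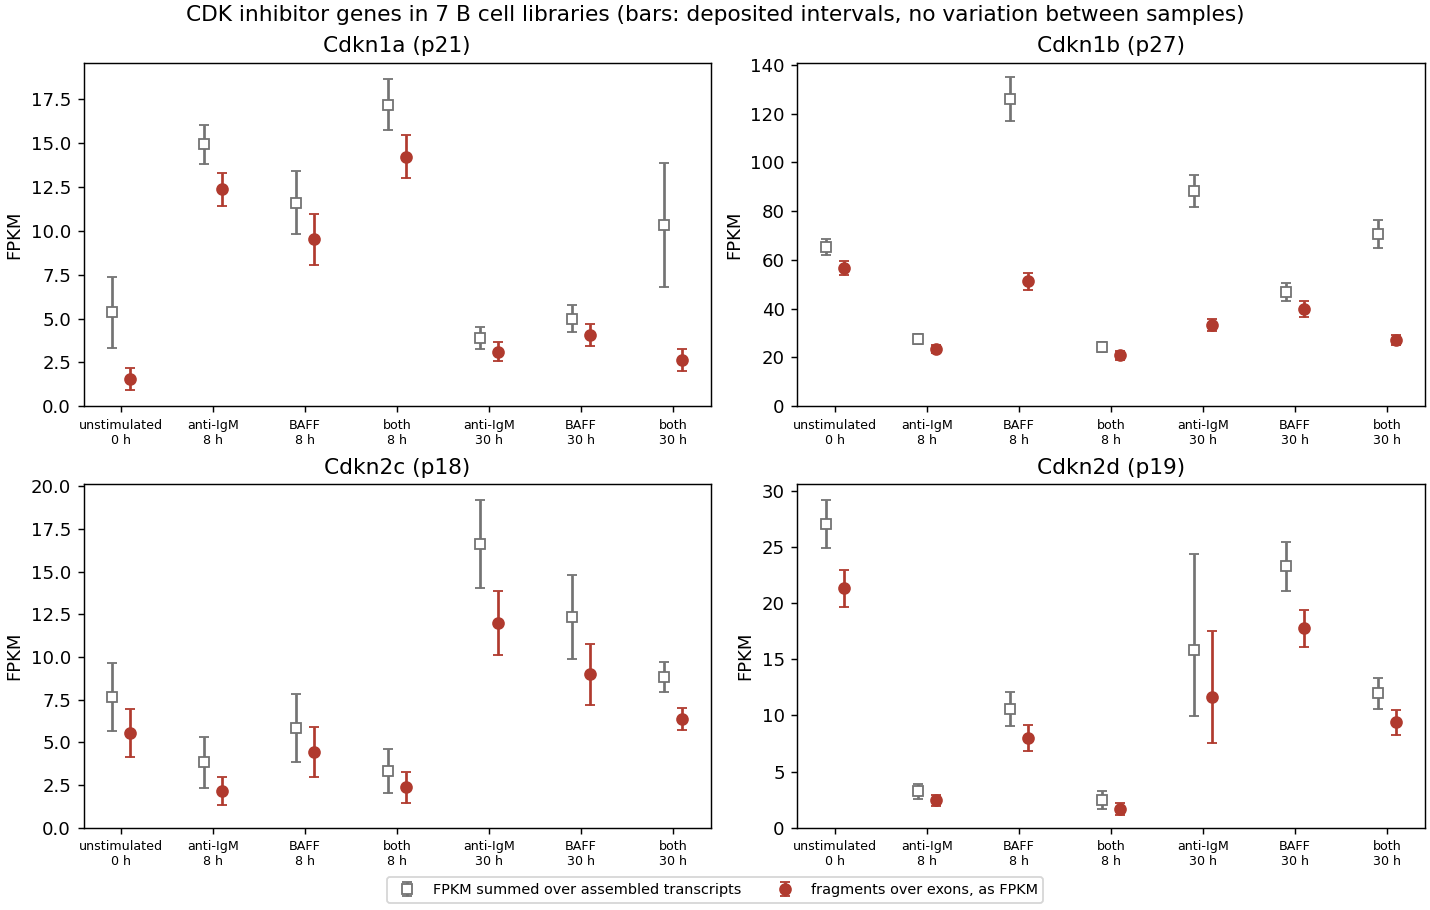
FPKM (vertical axis, from 0) of the 4 CDK inhibitor genes in each of the 7 libraries, as summed FPKM (open grey squares) and as FPKM over exons (filled red circles), with the deposited intervals as bars. Cdkn2d is highest in the unstimulated library (21.33 over exons) and lowest with both stimuli at 8 h (1.664), and the measures part for Cdkn1b in the 3 libraries where it was assembled in 2 pieces.

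Cdkn1a (chr17:29090986-29100722, plus strand) was low in unstimulated cells, highest at 8 h of every stimulus, and low again at 30 h. In the unstimulated library 68 fragments gave 1.531 FPKM over exons (0.9098 to 2.153). At 8 h it stood at 12.37 with anti-IgM (717 fragments), 9.507 with BAFF (362 fragments) and 14.23 with both (546 fragments). At 30 h it stood at 3.116, 4.037 and 2.620. The 3 libraries of 8 h were thus the highest, with no interval of theirs reaching that of any other library. Over exons the ratio to the unstimulated library was 8.077 with anti-IgM, 6.209 with BAFF and 9.291 with both at 8 h. Among neighbours in the order of levels, both stimuli and anti-IgM at 8 h had overlapping intervals, as did the 3 libraries of 30 h from one to the next, and both stimuli at 30 h and the unstimulated library.

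The summed FPKM of Cdkn1a gave a smaller difference for the same libraries: 5.344 unstimulated, 14.93, 11.60 and 17.20 at 8 h and 3.886, 4.986 and 10.32 at 30 h, in the order anti-IgM, BAFF, both. In the unstimulated library the gene was assembled in 3 pieces with gaps of 75 and 97 bases, and with both stimuli at 30 h in 2 pieces with a gap of 51 bases. All 3 gaps lie beyond the stop codon in the 3′ UTR. The end piece of the unstimulated library, 253 bases with 10 fragments, has an FPKM of 8.866 and falls under the length minimum. With it counted, the summed difference between anti-IgM at 8 h and the unstimulated library drops from 1.33 to 0.07 on the log2(FPKM + 1) scale. The fragments over exons, which include that piece, differ by 2.40. Every assembled piece of Cdkn1a with the first exon began 17 to 23 bases after the proximal start, and none began at the distal one. The p53 core pair lies upstream of the distal start, outside the window searched before the proximal start. Whether the pair acts on the proximal start was not tested, and the start in use does not decide it.

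Cdkn1b (chr6:134920401-134925525, plus strand) was the most abundant of the 4 per length in every library. Over exons it stood at 56.79 FPKM in the unstimulated library (53.95 to 59.63, 4087 fragments). At 8 h it was 23.39 with anti-IgM and 20.94 with both, but 51.24 with BAFF alone. At 30 h it was 33.46 with anti-IgM, 39.89 with BAFF and 27.08 with both. The unstimulated and BAFF 8 h libraries had overlapping intervals at the top, and the 8 h libraries with anti-IgM and both overlapped at the bottom. Between them the 3 libraries of 30 h followed, BAFF highest and both stimuli lowest, with intervals apart from each other. The interval of both stimuli at 30 h (24.94 to 29.22) overlapped that of anti-IgM at 8 h (21.77 to 25.02). Cdkn1b made up 53.44% to 70.04% of the summed FPKM over exons of the 4 genes.

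Summed FPKM of Cdkn1b was 65.15 unstimulated, then 27.59, 126.1 and 24.37 at 8 h and 88.24, 46.98 and 70.67 at 30 h for anti-IgM, BAFF and both. The 3 values above the unstimulated one (BAFF 8 h, anti-IgM 30 h, both 30 h) are those of the libraries in which the gene was assembled in 2 pieces, with gaps of 87, 107 and 106 bases in the order just given at nearly the same place, 2464 to 2468 bases past the stop codon. The order over exons, which does not depend on the break, has none of these 3 above the unstimulated library. The transcripts came in 2 forms in every library, with the 3′ UTR spliced or unspliced. The spliced form made up 62.8% to 70.8% of their summed FPKM, with 64.5% in the unstimulated library, so this share kept within a narrow range while the level changed. In 2 of the libraries, those of 8 h with anti-IgM and of 30 h with BAFF, 1 transcript began 918 or 902 bases upstream of the RefSeq start.

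**Figure D2:**
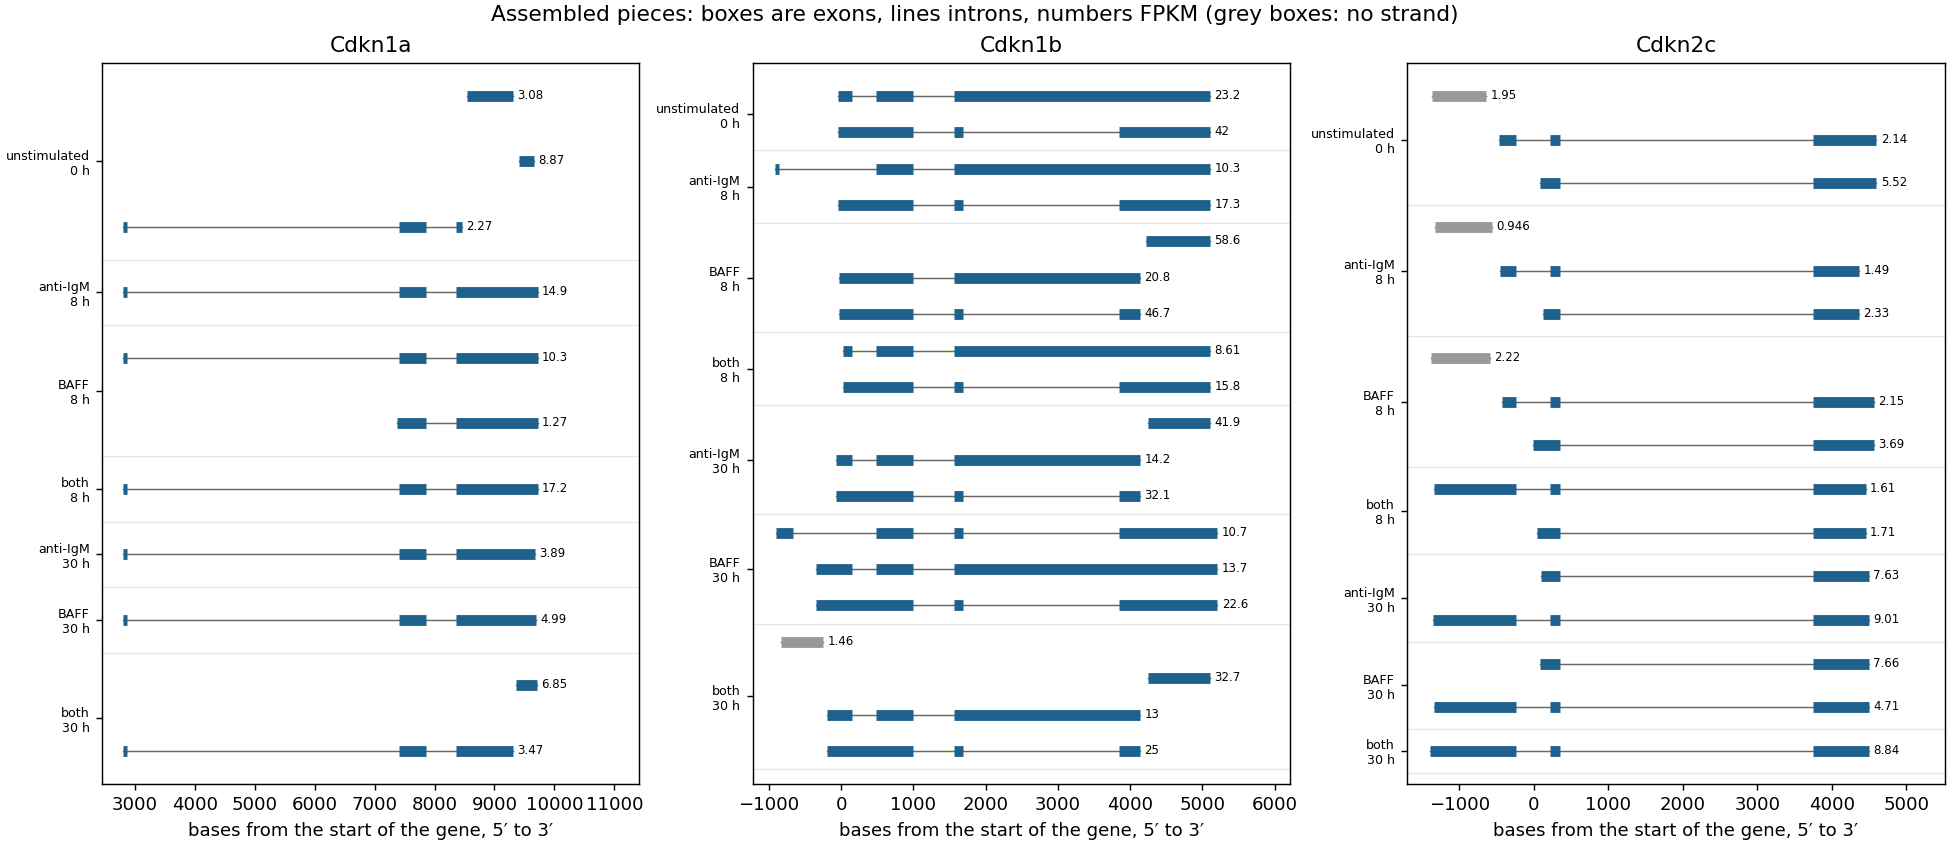
Assembled pieces of Cdkn1a, Cdkn1b and Cdkn2c by library, drawn to scale from the start of the gene (horizontal axis, bases), with exons as boxes, introns as lines, pieces without strand in grey, and each piece's FPKM beside it. Cdkn1b ends in a separate piece in BAFF 8 h, anti-IgM 30 h and both 30 h, and Cdkn1a in the unstimulated and both 30 h libraries.

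Cdkn2c (chr4:109660876-109665372, minus strand) was lowest at 8 h with anti-IgM present and highest at 30 h with anti-IgM alone. Over exons it stood at 5.555 FPKM unstimulated (4.146 to 6.963, 158 fragments). At 8 h it was 2.142 with anti-IgM, 4.425 with BAFF and 2.351 with both. At 30 h it was 12.00, 8.997 and 6.362. Among neighbours in this order, only BAFF at 30 h and both at 30 h had intervals apart. The 2 ends of the order were far apart, 10.14 to 13.86 against 1.306 to 2.978. Summed FPKM gave 7.656, then 3.821, 5.841 and 3.324, then 16.64, 12.36 and 8.840.

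The assembly held 2 kinds of Cdkn2c transcript, which share the coding exons but begin with an upstream first exon or with the exon next to the coding sequence. The form with the upstream exon had 2.14 FPKM in the unstimulated library, 1.49, 2.15 and 1.61 at 8 h and 9.01, 4.71 and 8.84 at 30 h, in the order anti-IgM, BAFF, both. The other form had 5.52, then 2.33, 3.69 and 1.71, then 7.63 and 7.66, and was not assembled with both stimuli at 30 h. The upstream form was thus 27.9% of the FPKM in unstimulated cells, 36.9% to 48.4% at 8 h, and 54.1% with anti-IgM and 38.1% with BAFF at 30 h. In the unstimulated, anti-IgM 8 h and BAFF 8 h libraries part of the upstream exon was assembled as a separate piece without strand, at 1.95, 0.946 and 2.22 FPKM, which is outside these shares and over which those libraries cannot be set against the others.

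Cdkn2d (chr9:21288464-21291209, minus strand) had the widest range of the 4. Over exons it stood at 21.33 FPKM unstimulated (19.67 to 23.00, 655 fragments). At 8 h it was 2.422 with anti-IgM (88 fragments), 7.980 with BAFF (190 fragments) and 1.664 with both (40 fragments). At 30 h it was 11.68, 17.79 and 9.373. The 8 h libraries with anti-IgM and both overlapped each other and lay below all others, and the unstimulated library lay above all others. The level in the unstimulated library was 8.809 times that with anti-IgM at 8 h, 2.673 times that with BAFF and 12.82 times that with both. Summed FPKM gave the same order: 27.08, then 3.222, 10.57 and 2.459, then 15.86, 23.30 and 11.97. By that measure the intervals of the unstimulated library (24.96 to 29.2) and of BAFF at 30 h (21.14 to 25.47) overlapped. It was assembled in 1 piece in every library, with anti-IgM at 30 h as 2 overlapping transcripts. The nearest other gene, Kri1, is 345 bases away.

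Differences between libraries are given on the log2(FPKM + 1) scale, which understates the change of low genes, first for summed FPKM and then over exons. A gene is called different when both libraries hold an assembled transcript of it, with 1 of them at 1 FPKM or more. The difference must also be at least 1, and the intervals must not overlap. Over exons, any assembled piece in the gene's exons counts as such a transcript, whatever its name. With 1 library a condition there is no test and no p-value. The 6 comparisons with the unstimulated library share it. For anti-IgM at 8 h, 3 of the 4 genes were called by summed FPKM, where 20.8% of all 9837 genes compared were, and all 4 over exons, where 20.5% were. Cdkn1a was higher by 1.33 and 2.40, Cdkn1b lower with -1.21 and -1.24, and Cdkn2d lower with -2.73 and -2.71. Cdkn2c had -0.84 and -1.06 and was called over exons only. The median of the 4 was -1.02 by summed FPKM and -1.15 over exons, against 0.05 and 0.12 over all genes. By summed FPKM 0.559% of all genes had a difference as low as that of Cdkn2d or lower.

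With both stimuli at 8 h the values were near those of anti-IgM alone, and all 4 genes were called by summed FPKM (20.7% of all genes): Cdkn1a at 1.52 and 2.59, Cdkn1b at -1.38 and -1.40, Cdkn2c at -1.0 and -0.97, and Cdkn2d at -3.02 and -3.07. Over exons Cdkn2c was not called. With BAFF alone at 8 h only Cdkn2d was called by summed FPKM, with -1.28 and -1.31, where 9.29% of all genes were called. Cdkn1a had 0.99 and 2.05 and was called over exons, where 6.28% of all genes were. Cdkn1b had 0.94 and -0.15, with opposite signs in the 2 measures and overlapping intervals over exons, and Cdkn2c had -0.34 and -0.27. The members' medians by summed FPKM were -1.19 with both and 0.30 with BAFF, against 0.11 and 0.12 over all genes. Over exons they were -1.18 and -0.21, against 0.12 over all genes in each comparison.

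At 30 h fewer of the 4 stood apart from the unstimulated library. With anti-IgM, Cdkn2c was called by summed FPKM at 1.03 but not over exons at 0.99, where 15.4% and 13.8% of all genes were called. Cdkn2d had -0.74 and -0.82 there and was not called. With BAFF none of the 4 was called by either measure (8.87% and 5.84% of all genes). With both, Cdkn2d was lower by -1.11 in both measures (15.7% of all genes called by summed FPKM, 14.0% over exons). Cdkn1b had 0.12 by summed FPKM and -1.04 over exons, the latter called. The members' medians at 30 h were 0.02, -0.14 and 0.15 by summed FPKM for anti-IgM, BAFF and both, and 0.06, 0.07 and 0.02 over all genes. Over exons the members' medians were -0.03, 0.18 and -0.44, and those over all genes 0.1, 0.09 and 0.07.

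**Figure D3:**
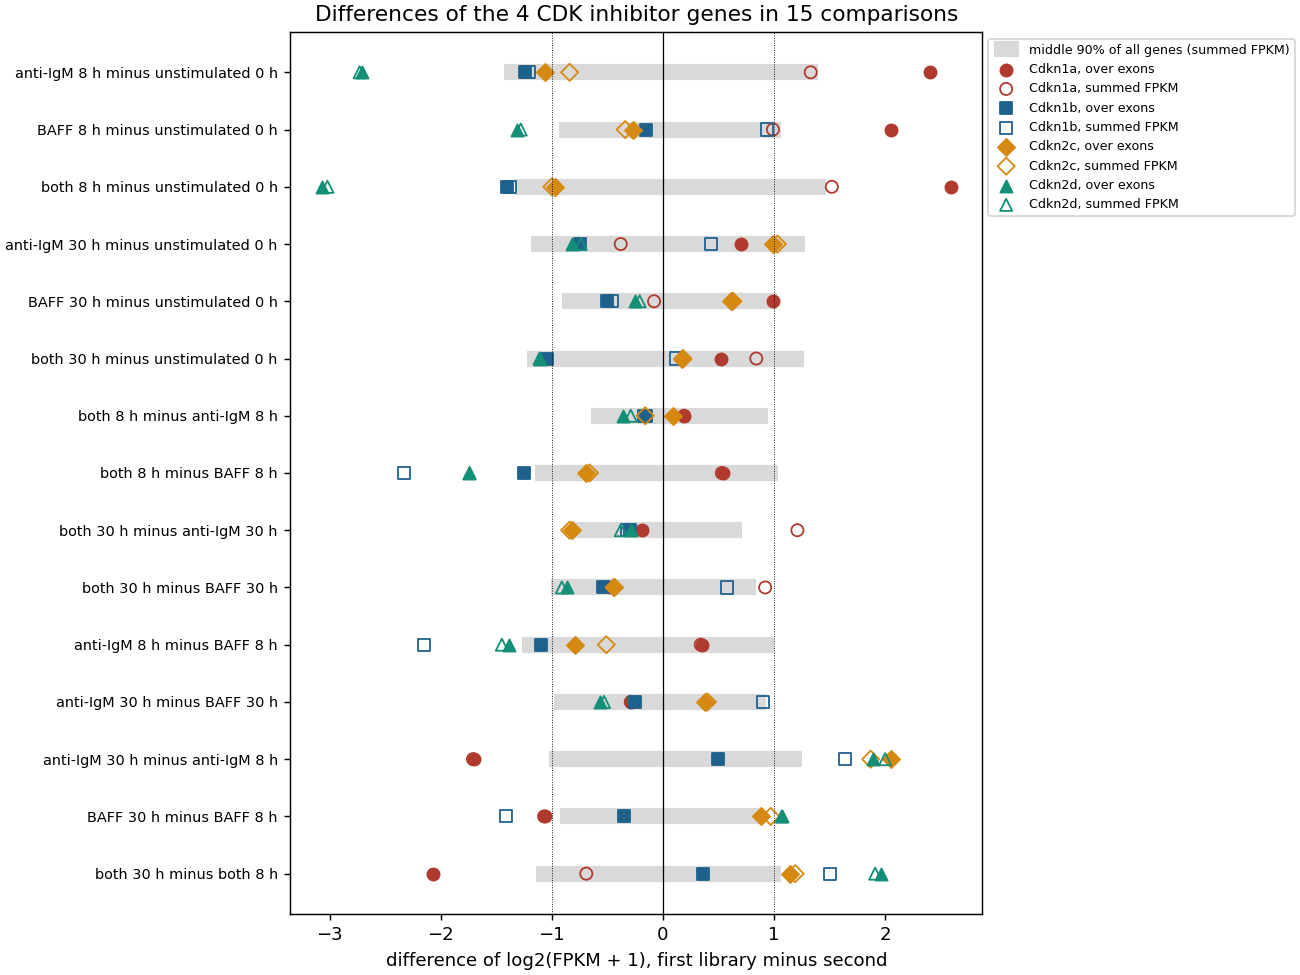
Difference of log2(FPKM + 1) (horizontal axis) of each gene in the 15 comparisons, by summed FPKM (open) and over exons (filled), with a grey band from the 5th to the 95th percentile of all genes by summed FPKM and dotted lines at -1 and 1. Cdkn2d lies left of the band in all 3 comparisons of 8 h with the unstimulated library, and open and filled squares of Cdkn1b lie apart wherever 1 of the libraries was assembled in 2 pieces.

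Anti-IgM and BAFF alone were set against each other directly at each time, without the unstimulated library. At 8 h 2 of the 4 genes were called, both lower with anti-IgM, where 12.8% of all genes were called by summed FPKM and 9.58% over exons. Cdkn2d differed by -1.45 and -1.39, which is 3.295 times as much over exons with BAFF. Cdkn1b differed by -2.15 and -1.10, the second being 2.190 times as much with BAFF. Cdkn1a, at 0.34 and 0.35, and Cdkn2c, at -0.51 and -0.79, were not called. At 30 h none of the 4 was called, where 8.21% of all genes were by summed FPKM and 5.12% over exons. Cdkn2d, with -0.53 and -0.57, had overlapping intervals at 30 h. Its interval with anti-IgM was wide there, 7.504 to 17.52 over exons. In that library it had 2 overlapping transcripts, the lesser at 2.064 FPKM (0 to 6.779).

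Adding BAFF to anti-IgM left the 4 genes close together at 8 h. None was called, where 5.78% of all genes were by summed FPKM and 1.59% over exons, and the differences ran from -0.29 (Cdkn2d) to 0.19 (Cdkn1a) by summed FPKM and from -0.36 to 0.19 over exons, with overlapping intervals for all 4. At 30 h Cdkn1a was called by summed FPKM at 1.21 (5.08% of all genes, and 1.6% over exons), but over exons it was -0.19 with overlapping intervals. In that comparison the library with both stimuli is the one with Cdkn1a in 2 pieces. Cdkn2c had -0.84 and -0.82 at 30 h, with intervals apart but under the difference required. Adding anti-IgM to BAFF went with lower Cdkn1b, -2.33 and -1.25, and lower Cdkn2d, -1.74 and -1.75, at 8 h, where 11.8% of all genes were called by summed FPKM and 9.35% over exons. At 30 h it went with no call among the 4 (7.79% of all genes, and 4.73% over exons), and Cdkn2d had -0.91 and -0.86.

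Between 8 h and 30 h the INK4 genes and Cdkn1a differed in opposite directions. With anti-IgM all 4 genes were called by summed FPKM (13.0% of all genes): Cdkn2c was higher at 30 h by 1.87 and 2.05, Cdkn2d by 2.0 and 1.89, and Cdkn1a was lower with -1.71 and -1.70. Over exons that is 5.603 times as much Cdkn2c and 4.823 times as much Cdkn2d. With both stimuli Cdkn2c was higher by 1.19 and 1.14 and Cdkn2d by 1.91 and 1.96 (12.3% of all genes), and Cdkn1a had -0.69 by summed FPKM and -2.07 over exons, called in the second. With BAFF, Cdkn2d was higher by 1.07 in both measures and Cdkn1a lower with -1.07 and -1.06 (7.36% of all genes), while Cdkn2c, at 0.97 and 0.88, fell short of the difference required. Cdkn1b was called with each stimulus by summed FPKM, at 1.64, -1.41 and 1.5 for anti-IgM, BAFF and both. Over exons it had 0.50, -0.35 and 0.36 and was called with none, where 10.4%, 3.9% and 9.65% of all genes were called.

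The INK4 genes were also set beside the kinase they act on. Cdk4 stood at 50.26 FPKM over exons in unstimulated cells, 176.8, 69.19 and 174.5 at 8 h and 147.9, 78.66 and 142.9 at 30 h for anti-IgM, BAFF and both. Cdkn2c and Cdkn2d together stood at 26.89 in unstimulated cells, 4.564, 12.40 and 4.015 at 8 h and 23.68, 26.79 and 15.73 at 30 h. The transcript ratio of Cdk4 to the pair was therefore 1.869 in unstimulated cells, 38.75 with anti-IgM, 5.578 with BAFF and 43.46 with both at 8 h, and 6.246, 2.936 and 9.085 at 30 h. It was lowest in the unstimulated library and highest in the 8 h libraries with anti-IgM. The pair leaves out Cdkn2b, another INK4 gene, which was at 1.161 to 3.238 FPKM over exons in the cultured libraries. It also leaves out Cdkn2a, whose locus makes an INK4 protein too, at 0.5841 to 1.028 FPKM over exons in the cultured libraries. With Cdkn2b added the ratio was 24.68, 4.423 and 24.89 at 8 h and 5.714, 2.747 and 8.460 at 30 h. Cdkn2a was not added, so these ratios are not those to all INK4 transcripts. Within the pair the makeup differed too: Cdkn2c was 20.66% in unstimulated cells and between 33.59% and 58.55% in the 6 cultured libraries. These are ratios of RNA, and protein was not measured.

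**Figure D4:**
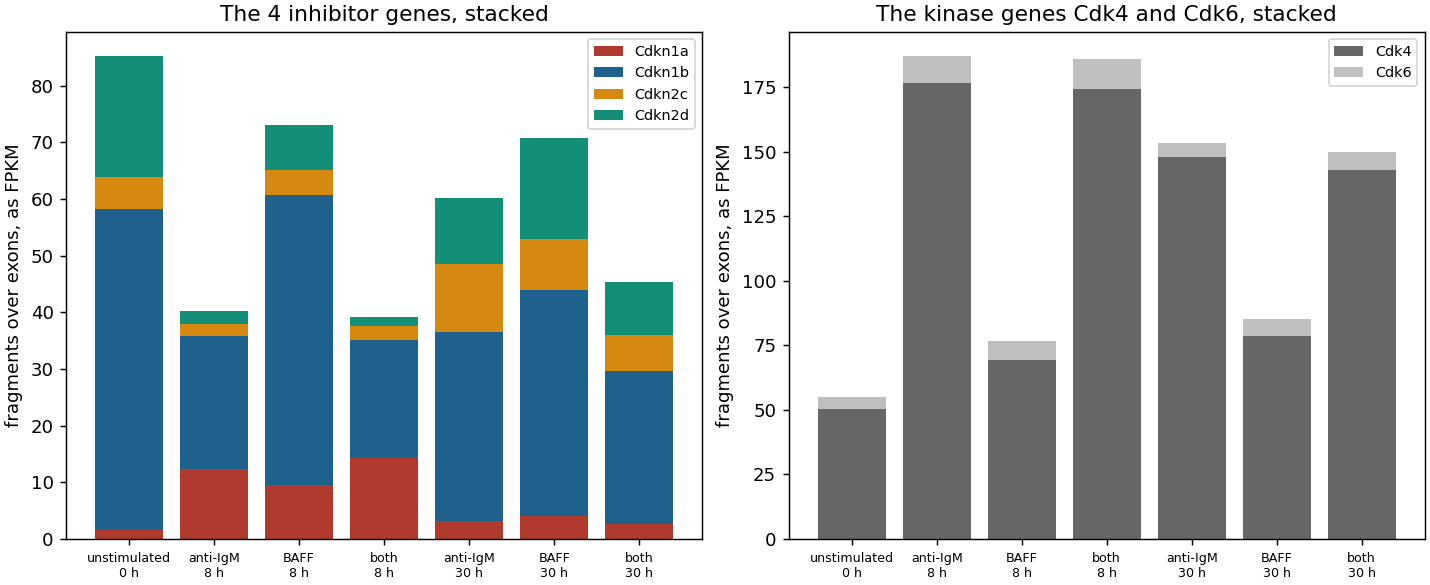
FPKM over exons (vertical axes, from 0) of the 4 inhibitor genes stacked (left) and of Cdk4 and Cdk6 stacked (right) in each library. The inhibitors sum to 85.21 in the unstimulated library and to 40.33 and 39.18 at 8 h with anti-IgM and both, the libraries in which Cdk4 is highest (176.8 and 174.5).

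Of the other CDK inhibitor genes, Cdkn1c was not assembled in any library. Cdkn2a, whose locus also makes the p19ARF protein, stood at 1.460 to 4.385 FPKM, and Cdkn2b, the gene of the INK4 protein p15, at 2.406 to 4.696 FPKM, in the 6 cultured libraries. Neither was assembled in the unstimulated one, so no difference from it is given. Cdkn3, a phosphatase of CDKs, stood at 4.018 FPKM unstimulated and was not assembled at 8 h with anti-IgM or both. None of these was called against the unstimulated library. Cdkn3 was called over exons only, for BAFF at 30 h minus 8 h, at 2.96 against 0.69 FPKM.

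Among 10 genes of G1 cyclins and kinases, 8 were compared for anti-IgM at 8 h, of which 2 were higher and 2 lower by summed FPKM. Ccnd2 (cyclin D2) was at 42.90 against 18.12 FPKM and Cdk4 at 208.5 against 57.95. Ccnd1 (cyclin D1) was at 1.878 against 11.06, and Ccne1 (cyclin E1) at 2.217 against 7.336, the last not called over exons. Over exons Ccnd3 was also called lower there, at 4.232 against 24.70 FPKM, but it had no summed FPKM with anti-IgM at 8 h. With both stimuli at 8 h Ccnd2, Cdk4 and Cdk6 were higher and Ccnd3 lower, the last not called over exons, where Ccnd1 was the 1 called lower. With BAFF at 8 h none of 9 was called by summed FPKM, and over exons Ccnd1 was, at 0.8641 against 8.900 FPKM. At 30 h Ccna2 (cyclin A2) and Cdk1, genes of S phase and mitosis, were higher with every stimulus, and Ccnd1 was lower with every stimulus. Cdk1 was at 4.541 FPKM unstimulated and at 40.47, 25.49 and 35.11 for anti-IgM, BAFF and both. Ccnd2 and Cdk4 were higher at 30 h with anti-IgM and with both, and Ccne1 with anti-IgM. Over exons 6, 4 and 6 of 10 were higher at 30 h with anti-IgM, BAFF and both, and Ccne1 and Ccne2 (cyclin E2) were among them for every stimulus. Ccne1 was at 1.437 FPKM over exons unstimulated and at 5.337, 3.958 and 4.349, and Ccne2 at 2.183 and at 8.022, 7.719 and 7.640. Ccne2 had no transcript that counted towards summed FPKM in any library. Cdk2 was called by summed FPKM only, for both at 30 h minus 8 h, at 45.15 against 20.12 FPKM, with 0.98 over exons.

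The genes of S phase and mitosis were mostly higher at 30 h than in unstimulated cells, the time at which Cdkn2c and Cdkn2d were above their 8 h levels. By summed FPKM 22 of 23 were higher with anti-IgM at 30 h than unstimulated, 20 with BAFF and 21 with both, with medians of 1.99, 1.49 and 2.25. Over exons the counts were 21, 20 and 21. Cdc6, which loads the replicative helicase, Kif11, a spindle motor, and Rrm2, a subunit of ribonucleotide reductase, were among the largest with anti-IgM, at 3.33, 3.32 and 2.81. With BAFF they were Cdc6 at 2.07, Birc5 at 1.98 and Rrm2 at 1.94. Cdt1, a helicase loading factor, was called lower with anti-IgM (-1.03) and BAFF (-1.07), but over exons it had -0.45 and -0.51. At 8 h with anti-IgM 3 of 22 were higher and 5 lower by summed FPKM, and over exons 1 was higher and 1 lower.

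Few genes that act on p27 protein were called. All 12 were compared, and for anti-IgM and for both at 8 h none was called by summed FPKM. Skp2, the subunit of the ligase that recognises p27, was called higher with BAFF at 8 h, at 8.636 against 2.995 FPKM, but over exons its difference was -0.21. Rnf123, a subunit of another p27 ligase, was called lower with anti-IgM at 30 h, at 14.16 against 36.33 FPKM, with -1.16 over exons. Cks1b, the cofactor with which SKP2 binds p27, was called over exons only at 30 h with anti-IgM (12.39 FPKM) and both (16.75), against 5.561 unstimulated. With both at 30 h it was called higher by both measures than with BAFF at 30 h and than with both at 8 h, by 1.43 and 1.33 over exons. Cops5, a signalosome subunit, was called over exons only, with both at 8 h, at 52.85 against 25.32 FPKM. Cks1b and Cops5 are named outside the rule, after their values were seen. The list's medians by summed FPKM against the unstimulated library were between 0.10 and 0.32.

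Against the unstimulated library, the p53 pathway genes were called in both directions for anti-IgM at 8 h, where Cdkn1a was high. For anti-IgM at 8 h 19 of 22 were compared, where 20.8% of all genes were called by summed FPKM and 20.5% over exons. Over exons 4 were higher and 5 lower, with a median of 0.39 against 0.12 over all genes. By summed FPKM 3 were higher and 5 lower, with a median of 0.06 against 0.05. Tnfrsf10b, a death receptor, was at 8.703 against 0.9665 FPKM, Aen, a nuclease, at 24.39 against 7.021 and Bbc3, the gene of PUMA, at 15.08 against 5.583. Plk2, a kinase, was at 6.110 against 35.15, Pmaip1, the gene of NOXA, at 18.75 against 71.35 and Gadd45a, a stress gene, at 22.94 against 75.09. All 6 were called over exons as well. With both at 8 h 20 were compared, of which 4 were higher and 5 lower by summed FPKM. Over exons 4 were higher and 6 lower there (20.7% of all genes called by each measure). With BAFF at 8 h none of 20 was higher and 3 were lower: Plk2 at 5.264, Pmaip1 at 14.97 and Gadd45a at 15.76 FPKM, the last not called over exons. At 30 h these 3 genes were again lower with anti-IgM and with BAFF, and Tnfrsf10b was called higher by summed FPKM only. Between 8 h and 30 h of the same stimulus, where no control library is involved, none of the list was called higher by either measure. By summed FPKM 5 of 20 were lower at 30 h with anti-IgM, 0 of 21 with BAFF and 3 of 21 with both, with medians of -0.26, -0.38 and -0.37, and over exons 3, 2 and 5 were lower. Phlda3, a repressor of AKT signalling named after its values were seen, was at 6.055, 3.051 and 7.611 FPKM at 8 h and at 1.108, 1.615 and 0.8625 FPKM at 30 h for anti-IgM, BAFF and both.

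Transcription factors tied to the 4 genes were mostly lower where called. For anti-IgM at 8 h 8 of 22 were lower and 1 higher, with a median of -0.60. The largest were Klf4 (1.614 against 36.05 FPKM) and Klf2 (18.76 against 157.5), factors of lymphocyte quiescence, and E2f2 (2.858 against 24.31). Men1 was the 1 called higher, and over exons its difference was 0.15. With BAFF at 8 h 5 of 22 were lower, led by Egr1 (14.69 against 264.5 FPKM), Klf4 (1.738) and Klf6 (36.46 against 158.9). Id3, an inhibitor of E proteins, was the 1 higher, at 99.63 against 42.08 FPKM. At 30 h with anti-IgM 8 of 20 were lower, led by Klf4, Klf6 and Egr1 with -3.28, -2.66 and -2.50, and with BAFF 4 of 21, led by Klf4, Egr1 and Klf6 with -3.28, -3.19 and -2.60. Id3 was higher in both, by 1.5 and 1.14.

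For each gene the 5 with the most similar course were found by Pearson r of log2(FPKM + 1) over the 7 libraries, among 4222 genes. The points share their libraries, and r is a description. Cdkn2d had the closest neighbours: Ttc7 (r of 0.995), Dusp7, Myo18a, Sbk1 and Crip1 (0.990), all with r of at least 0.97 over exons too. Ttc7 covered a smaller range than Cdkn2d, from 41.87 FPKM unstimulated to 17.12 with anti-IgM at 8 h and 31.67 at 30 h. Cdkn2c was nearest to Rmnd1 (0.989), Acat1, Gyg, Ak3 and Cd38 (0.965), of which Ak3 had 0.227 over exons. Cd38, an enzyme at the B cell surface, stood at 32.67 FPKM unstimulated, 10.67 with anti-IgM at 8 h and 60.07 at 30 h. Cdkn1a was nearest to Cdc37l1 (0.958), with Kcnh4, Hook2 and Mrps18b also among its 5, and Cdkn1b to Abca1 (0.970), Pip5k1b, Zdhhc20, Mfge8 and Add1. For these 2 genes r over exons was as low as 0.390 (Cdc37l1) and 0.129 (Pip5k1b).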

How the data were processed

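Per the labels' protocols, RNA was purified with RNeasy columns, reverse transcribed with poly-dT primers and made into Illumina TruSeq libraries. Per the submitters' processing notes, CASAVA 1.8.2, TopHat2 2.0.5, Bowtie2 2.0.0.7, Cufflinks 2.0.2, Cuffdiff and build mm10 were used. The deposited files give each library's assembled transcripts with FPKM and its bounds, and 1 merged set without values, used for names and exons. Transcripts took the name of same-strand merged exons they overlapped. Fragment numbers were computed from FPKM, bounds and length. Pieces under 300 bases, which held 66.6% to 74.4% of a library's summed FPKM, were left out of summed FPKM. The 4 genes, the 6 gene lists and the 8 marker lists were chosen with earlier results of these data known. Named genes were the 4 members, every called gene of the lists of other CDK inhibitors and of G1 cyclins and kinases, up to 3 each way of other lists for anti-IgM and BAFF against unstimulated, and the 5 genes most like each member; some items are not reported here. Fragments, 40 to 4087 per member and library, set the counting error only, and variation between samples was not measured. No replicates existed, so no test was run. Alternatives changed the pseudocount, the filters, the fold, the scaling, the transcripts summed, the strand and the measure. Sequences are from RefSeq on GRCm38.p6, and protein sequences are not used here. The work was done in Python 3.11.15, with tables in pandas 2.3.3, arithmetic in numpy 2.4.6 and plots in matplotlib 3.10.9.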

Additional observations from a re-analysis of the deposited data

Results flagged for a closer look

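The change of Cdkn1b from 8 h to 30 h had opposite signs with different stimuli by summed FPKM: 1.64 with anti-IgM and 1.5 with both stimuli, but -1.41 with BAFF alone. Each is a difference between 1 library and 1 other, and the difference between the stimuli was not tested. Over exons the 3 values kept their signs at 0.50, 0.36 and -0.35, and none reached the difference required for a call. Each of these 3 comparisons has 1 library in which Cdkn1b was assembled in 2 pieces.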

How the results depend on the processing

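The 60 differences of the 4 genes (15 comparisons each) were recomputed under 8 alternatives. Over exons 2 differences that were called by 1 measure changed sign. Cdkn1b with both at 30 h minus unstimulated was -1.04, called. Cdkn1a with both minus anti-IgM at 30 h was -0.19. Other signs changed without a call by either measure. Against unstimulated, Cdkn1b was -0.15 with BAFF at 8 h and -0.75 with anti-IgM at 30 h. Cdkn1a was 0.70 with anti-IgM and 0.99 with BAFF at 30 h. At 30 h, both minus BAFF was -0.48 for Cdkn1a and -0.54 for Cdkn1b, and anti-IgM minus BAFF was -0.25 for Cdkn1b. Cdkn2c for both minus anti-IgM at 8 h was 0.09. Calls were lost over exons for Cdkn1b between 8 h and 30 h (0.50 with anti-IgM, -0.35 with BAFF, 0.36 with both) and for Cdkn2c against unstimulated (-0.97 with both at 8 h, 0.99 with anti-IgM at 30 h). They were gained for Cdkn1a (2.05 with BAFF at 8 h minus unstimulated, -2.07 for both at 30 h minus 8 h) and Cdkn2c (-1.06 with anti-IgM at 8 h minus unstimulated). With all transcript lengths, Cdkn1a against unstimulated lost its calls at 8 h (0.07 with anti-IgM, 0.26 with both) and gained them at 30 h (-1.64 with anti-IgM, -1.35 with BAFF), because the short end piece of the unstimulated library enters. With only the most abundant transcript, calls were lost for Cdkn1a (-0.92 for BAFF at 30 h minus 8 h, 0.68 for both minus anti-IgM at 30 h) and Cdkn2c (0.62 with anti-IgM at 30 h minus unstimulated), and gained for Cdkn1a (1.47 with BAFF at 8 h minus unstimulated, -1.21 for both at 30 h minus 8 h). With either strand, Cdkn2c with anti-IgM at 30 h minus unstimulated was 0.73, not called, and both minus BAFF at 8 h -1.07, called. With median ratio scaling, the first was 0.96, not called, and Cdkn2c with BAFF at 30 h minus 8 h 1.00, called. With a pseudocount of 0.1 FPKM calls were gained for Cdkn1a (1.03 for both minus BAFF at 30 h, 1.10 with BAFF at 8 h minus unstimulated) and Cdkn2c (1.07 with BAFF at 30 h minus 8 h). At 1.5-fold the added calls were, against unstimulated, Cdkn1a 0.99 and Cdkn1b 0.94 with BAFF at 8 h, Cdkn2c -0.84 with anti-IgM at 8 h and 0.63 with BAFF at 30 h, and Cdkn2d -0.74 with anti-IgM at 30 h. The others at 1.5-fold were Cdkn1a -0.69 for both at 30 h minus 8 h and 0.92 for both minus BAFF at 30 h, Cdkn1b 0.90 for anti-IgM minus BAFF at 30 h, Cdkn2c -0.84 for both minus anti-IgM at 30 h and 0.97 for BAFF at 30 h minus 8 h, and Cdkn2d -0.91 for both minus BAFF at 30 h. With at least 5 FPKM in 1 library no call changed among the 57 differences left. No paired analysis was possible because each condition was 1 library, and none could be left out. Depth limits Cdkn1a in the unstimulated library (68 fragments) and Cdkn2d with both stimuli at 8 h (40 fragments).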
